A study of Mus musculus with 4 samples.

Results

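The 10 transcription factor genes that build and maintain the insulin-producing beta cell were read by symbol from single-cell RNA sequencing of mouse pancreatic islets: Pdx1, Nkx6-1, Nkx2-2, Neurod1, Pax6, Isl1, Rfx6, Ldb1, Foxa2 and Insm1. The members were 10 of 32285 genes in the matrices, and each symbol occurred in every one of the 4 libraries. All islets came from male mice aged 8 weeks, with 1 library per group. The Cre-negative group carried floxed alleles of Tet2 and Tet3 on both chromosomes (Tet2 flox/flox, Tet3 flox/flox) and no Pdx1-Cre, and the Cre-positive group carried the same floxed alleles with Pdx1-Cre. The third group came from control pregnancies (control offspring) and the last from pregnancies with intrauterine hyperglycemia (IHG offspring), with a genotype not given in the sources used here. Tet2 and Tet3 encode enzymes that oxidise 5-methylcytosine. Pdx1-Cre is driven by the promoter of a member, Pdx1, and acts in the pancreatic epithelium from which all islet endocrine cells derive, so its action is not limited to beta cells. The number of mice per library was not given either, and counts taken at the 3' ends of transcripts do not check whether the floxed exons were deleted.

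Foxa2, a forkhead factor, and Pdx1, a homeodomain factor, act from the early pancreatic epithelium onward, and Pdx1 later binds the insulin promoter in beta cells. Insm1, a zinc finger repressor, Neurod1, a basic helix-loop-helix factor, Rfx6, a winged-helix factor, and the homeodomain factors Nkx2-2, Pax6 and Isl1 belong to the endocrine program that the hormone lineages share. Nkx6-1 is a homeodomain repressor that separates the beta fate from the alpha fate, and Ldb1 is a LIM-binding cofactor that joins Isl1 in transcriptional complexes.

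In the GENCODE annotation of GRCm38, the assembly also called mm10, the genes lay on 5 chromosomes. Pdx1 was at chr5:147269959-147275848 and Nkx6-1 at chr5:101658139-101664996. A total of 5 members were on chromosome 2: Neurod1 (chr2:79452521-79456751), Pax6 (chr2:105668900-105697364), Insm1 (chr2:146221921-146225020), Nkx2-2 (chr2:147177546-147194243) and Foxa2 (chr2:148042877-148046969). Isl1 was at chr13:116298281-116309689, Rfx6 at chr10:51677756-51730432 and Ldb1 at chr19:46031570-46045214. A total of 5 members overlapped another annotated gene, and whether the counting used the strand is not given. Nkx2-2, Pdx1, Pax6 and Ldb1 were overlapped on the opposite strand (by Nkx2-2os and 6430503K07Rik, Plut, Pax6os1 and Pprc1), and Neurod1 was overlapped by Cerkl on its own strand and by Gm26755 on the other. Reads counted for Pax6os1, the antisense partner of Pax6, came to between 11.2 and 20.1 UMIs per 1000000 UMIs in beta-like cells, and those for Nkx2-2os to at most 0.0342 (UMIs are unique molecular identifiers, each standing for 1 captured transcript).

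The promoters of Rfx6 and Ldb1 are shown because these genes stood apart together between the Cre libraries, and those of Pdx1 and Isl1 for comparison, the former because it drives the Cre and the latter because Isl1 differed most among the members at 20 UMIs per 1000000 or more in alpha-like cells of those libraries. TET enzymes act on cytosines in CG pairs, and capitals mark each CG pair. Sequences are from RefSeq on GRCm38.p6, read on the strand of the gene from 5' to 3', taken from the 250 bases before the annotated start and limited to the stretch without an annotated exon. Rfx6 is from chr10:51685268-51685517 (plus strand), which lies in an intron of the longer GENCODE gene model. Ldb1 is from chr19:46045312-46045561 (minus strand, the first of 3 listed starts), Pdx1 from chr5:147269847-147269958 (plus strand) and Isl1 from chr13:116309690-116309938 (minus strand).
Rfx6: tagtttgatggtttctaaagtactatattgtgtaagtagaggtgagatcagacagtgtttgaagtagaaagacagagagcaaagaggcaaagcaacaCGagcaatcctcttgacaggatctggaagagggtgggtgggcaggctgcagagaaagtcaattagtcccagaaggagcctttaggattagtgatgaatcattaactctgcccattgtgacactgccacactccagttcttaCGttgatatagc
Ldb1: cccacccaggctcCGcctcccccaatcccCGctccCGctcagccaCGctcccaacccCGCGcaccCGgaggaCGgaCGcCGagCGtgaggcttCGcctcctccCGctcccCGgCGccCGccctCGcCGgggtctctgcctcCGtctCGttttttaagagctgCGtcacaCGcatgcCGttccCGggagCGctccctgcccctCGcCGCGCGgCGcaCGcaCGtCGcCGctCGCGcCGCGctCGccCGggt
Pdx1: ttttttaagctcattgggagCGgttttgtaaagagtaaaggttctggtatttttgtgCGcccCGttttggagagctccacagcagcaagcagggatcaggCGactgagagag
Isl1: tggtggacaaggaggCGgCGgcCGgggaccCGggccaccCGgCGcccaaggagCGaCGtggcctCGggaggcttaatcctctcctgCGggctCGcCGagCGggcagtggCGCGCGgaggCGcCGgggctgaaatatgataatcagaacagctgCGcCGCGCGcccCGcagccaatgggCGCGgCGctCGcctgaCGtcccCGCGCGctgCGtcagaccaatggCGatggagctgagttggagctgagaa
CG pairs were counted in the full 250 bases on both strands, which hold the same pairs. Rfx6 had 2 such pairs, and 71.0% of the 32851 promoters in the table had more. Ldb1 had 40 at this start, with more in 1.09% of promoters, and 22 and 4 at its other starts. Pdx1 had 10 and Isl1 33, against a median of 6 over the table. Rfx6 thus lay below the median and Ldb1, at this start, far above it. Methylation was not measured in these data. Promoter entries were found for 9 of the 10 members.

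The 4 libraries held between 6421 barcodes (Cre-negative) and 16459 barcodes (control offspring), with a median of 5334 to 7373 UMIs per barcode. After filters 41099 cells remained, and pairs of libraries shared between 51 and 220 cell barcodes. Cells were clustered without any member, and clusters were named from markers that include no member, giving 3235 beta-like cells in the Cre-negative library, 2902 in the Cre-positive one, 10737 in control offspring and 6147 in IHG offspring. Alpha-like cells (glucagon) numbered 958, 1426, 975 and 1934 and delta-like cells (somatostatin) 522, 848, 1121 and 1426 in that order. PP-like cells (pancreatic polypeptide) reached 50 cells in the Cre-negative (464) and IHG (201) libraries alone. Of 11 beta markers, 9 reached 20 UMIs per 1000000 in beta-like cells of every library. The libraries fell largely into clusters of their own within a class: 86.0% of Cre-negative beta-like cells were in cluster 3 and 70.2% of Cre-positive ones in cluster 2, so library and cluster cannot be told apart there. Unnamed clusters, among them one rich in both glucagon and somatostatin, held 18, 1674, 1177 and 484 cells in the same order and entered no value.

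Levels below are UMIs of a gene per 1000000 UMIs of its class in a library (CPM), and their 95% intervals are exact Poisson intervals. Ratios carry exact conditional binomial intervals. These cover counting error only, since cells are not replicates and with 1 library per group no test between groups was possible. A difference was counted when the ratio reached 1.5-fold in either direction. In such sums, fewer transcripts of a gene and a larger share of UMIs taken by other genes cannot be told apart.

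Pdx1 and Nkx6-1 were the members concentrated in beta-like cells. Pdx1 was at 103 CPM in Cre-negative and 123 CPM in Cre-positive beta-like cells, and at 110 CPM in those of control offspring and 108 CPM in those of IHG offspring. In delta-like cells it was at 65.2, 86.2, 95.1 and 71.0 CPM in that order, below beta-like cells of the same library in 4 of 4 libraries. With classes set by hormones alone, delta-like cells were at 61.3, 78.8, 50.9 and 72.3 CPM, from 121, 48, 22 and 168 UMIs. Alpha-like cells held 3.14, 8.87, 12.1 and 3.54 CPM, and PP-like cells 9.56 in the Cre-negative and 10.8 in the IHG library. Endothelial-like cells, which should lack the gene, were at 0 (upper limit 6.85), 5.16, 6.18 and 9.93 CPM, a range that overlapped that of alpha-like cells. When each cell was thinned to 2000 UMIs, 18.0% to 20.6% of beta-like cells, 10.3% to 18.7% of delta-like cells, 0.233% to 1.97% of alpha-like cells and 0% to 1.36% of endothelial-like cells had a Pdx1 UMI. Without thinning these shares were 49.9% to 65.2%, 29.0% to 36.4%, 1.77% to 5.03% and 0% to 2.08%, at median depths of 5832 to 10070 UMIs in beta-like and 1690 to 2158 UMIs in endothelial-like cells. The alpha-like shares are therefore read as background.

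Nkx6-1 was at 638, 688, 688 and 684 CPM in beta-like cells in the same order of libraries. That is a spread of less than 1.08-fold on the scale of all UMIs. Without hormone and mitochondrial genes in the total the spread was wider, at 987, 1108, 1216 and 1259 CPM. In CPM of all UMIs, alpha-like cells were at 78.2, 88.3, 124 and 64.9 CPM of Nkx6-1. The beta-to-alpha ratio within a library ran from 5.53 to 10.5. PP-like cells were at 188 CPM in the Cre-negative and 156 CPM in the IHG library. Delta-like cells varied far more between libraries, at 71.5, 224, 364 and 104 CPM, and are described with their insulin content further on. Beta-like cells were highest in 4 of 4 libraries for both genes, with no overlap with alpha-like or delta-like ranges.

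**Figure D1:**
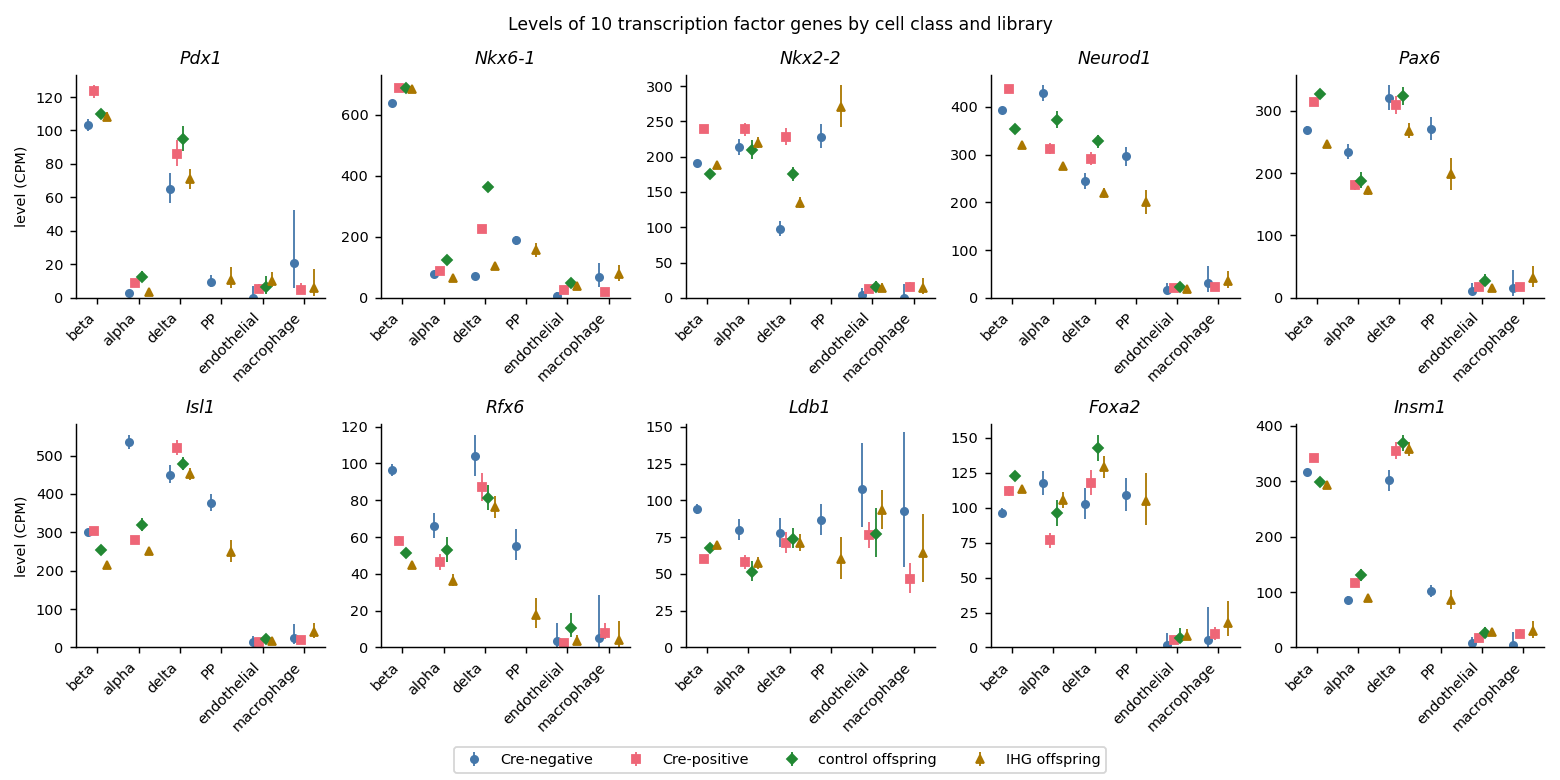
Level of each gene in CPM (vertical axes, linear from 0) by cell class (horizontal axes) and library (colour and marker), with exact 95% Poisson intervals of counting error. Classes with fewer than 50 cells in a library have no point. Pdx1 and Nkx6-1 are highest in beta-like cells, and Isl1 is higher in delta-like than in beta-like cells of every library. On this scale, which counts hormone UMIs in the total, Ldb1 alone is as high in endothelial-like cells as in endocrine classes.

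Insm1 marked beta-like and delta-like cells together. It was at 316, 342, 299 and 293 CPM in beta-like cells and at 301, 355, 369 and 358 CPM in delta-like cells (Cre-negative, Cre-positive, control, IHG), against 84.8, 117, 131 and 89.7 CPM in alpha-like cells. The beta and alpha ranges did not overlap, with a ratio of 2.28 to 3.72 within libraries, whereas the beta and delta ranges did. Pax6, which also controls hormone genes in alpha cells, followed the same order more weakly. It was at 270, 314, 326 and 247 CPM in beta-like cells, 234, 181, 188 and 173 in alpha-like cells and 321, 310, 323 and 268 in delta-like cells. Beta-like cells were above alpha-like cells in 4 of 4 libraries for both genes.

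Neurod1 and Nkx2-2 did not separate beta-like from alpha-like cells. Neurod1 was at 393, 437, 354 and 320 CPM in beta-like cells and at 429, 312, 373 and 276 CPM in alpha-like cells, with beta above alpha in 2 of 4 libraries. Nkx2-2 was at 191, 239, 176 and 188 CPM in beta-like cells and at 214, 239, 210 and 220 CPM in alpha-like cells, with beta above alpha in 1 of 4 libraries. Delta-like cells were the lowest of the 3 classes in 4 of 4 libraries for both genes, at 244, 292, 328 and 219 CPM for Neurod1 and 97.5, 228, 175 and 135 CPM for Nkx2-2. The beta and delta ranges overlapped for both, and in control offspring the Nkx2-2 levels of the classes were 176 and 175 CPM. Delta-like cells of that library held more insulin (12.9% of UMIs) than somatostatin (10.0%). With classes set by hormones, Nkx2-2 there was at 174 CPM in beta-like cells and 102 CPM in delta-like cells, the latter from 44 UMIs in 137 cells.

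Isl1, a LIM homeodomain factor, was the member whose delta-like and beta-like ranges stood clearly apart with delta-like cells higher. In delta-like cells it was at 450.5, 521, 479 and 452 CPM, and in beta-like cells at 302, 304, 254 and 215 CPM, so that delta-like cells were higher in 4 of 4 libraries with no overlap. Alpha-like cells were at 535 CPM in the Cre-negative library and at 280.0, 319 and 251 CPM in the Cre-positive, control offspring and IHG libraries. The Cre-negative library was thus the only one with alpha above delta. Rfx6 was also higher in delta-like than in beta-like cells of each library, at 104, 87.0, 81.2 and 76.0 CPM against 96.5, 58.0, 51.5 and 44.7 CPM, although the ranges overlapped. PP-like cells were at 55.4 CPM of Rfx6 in the Cre-negative library and 17.5 CPM in the IHG library. Foxa2 was also higher in delta-like than in beta-like cells of each library, with ranges that overlapped, and in 2 of 4 libraries when hormone and mitochondrial genes were left out of the total. It was at 96.5, 112, 123 and 114 CPM in beta-like cells, 118, 76.6, 96.0 and 106 in alpha-like cells, and 103, 118, 143 and 129 in delta-like cells.

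In CPM of all UMIs, Ldb1 was the only member of the 10 with a higher level in endothelial-like than in beta-like cells. It was at 94.0, 59.8, 67.9 and 69.7 CPM in beta-like cells and at 108, 76.3, 76.8 and 93.2 CPM in endothelial-like cells, which were higher in 4 of 4 libraries. Alpha-like cells were at 80.0, 57.9, 51.4 and 57.3 CPM and delta-like cells at 77.7, 71.1, 74.0 and 71.0 CPM. The other 9 members were at least 4.86-fold higher in beta-like than in endothelial-like cells in every library where both had UMIs, and Pdx1 had 0 UMIs in Cre-negative endothelial-like cells. The order of these classes for Ldb1 may depend on the scale. Insulin took 21.7% to 31.7% of UMIs in beta-like and 0.373% to 1.79% in endothelial-like cells. Without hormone and mitochondrial genes in the total, beta-like cells were at 145, 96.5, 120 and 128 CPM of Ldb1.

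The first contrast asked how islet cells with floxed Tet2 and Tet3 differed in the presence of Pdx1-Cre. Among the members, beta-like cells had 0 of 10 that were 1.5-fold higher with Cre and 2 that were 1.5-fold lower, Rfx6 and Ldb1. Over all 6459 genes with 20 CPM in either library, 25.9% passed 1.5-fold, 6.95% higher and 18.9% lower, so a count of 2 in 10 lower was near the background. The median log2 ratio was 0.13 over the 10 members and -0.21 over all genes tested, and 8 of 10 members lay above the latter. With median-of-ratios scaling, which moves the median over all genes from -0.21 to -0.04 and the share of higher genes among those counted from 26.9% to 49.2%, 0 of 10 members were 1.5-fold apart.

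Rfx6 was 1.66-fold lower (1.57 to 1.76) in Cre-positive than in Cre-negative beta-like cells, from 2013 and 3269 UMIs, and Ldb1 was 1.57-fold lower (1.49 to 1.66). The Cre-negative and control offspring libraries, neither labelled with Cre or hyperglycemia, also differed in these genes. This second comparison shares the Cre-negative library with the first. Rfx6 was 1.87-fold higher (1.79 to 1.96) and Ldb1 1.38-fold higher (1.32 to 1.45) in Cre-negative than in control offspring beta-like cells, where 22.9% of 6330 genes passed 1.5-fold, 19.2% higher and 3.7% lower. Rfx6 was the 1 member counted there. The median log2 ratio over all genes tested there was 0.29, against 0.91 for Rfx6 and 0.47 for Ldb1. For both genes it was the Cre-negative library that stood apart, and the Cre-positive, control offspring and IHG values lay close together, from 44.7 to 58.0 CPM and from 59.8 to 69.7 CPM.

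**Figure D2:**
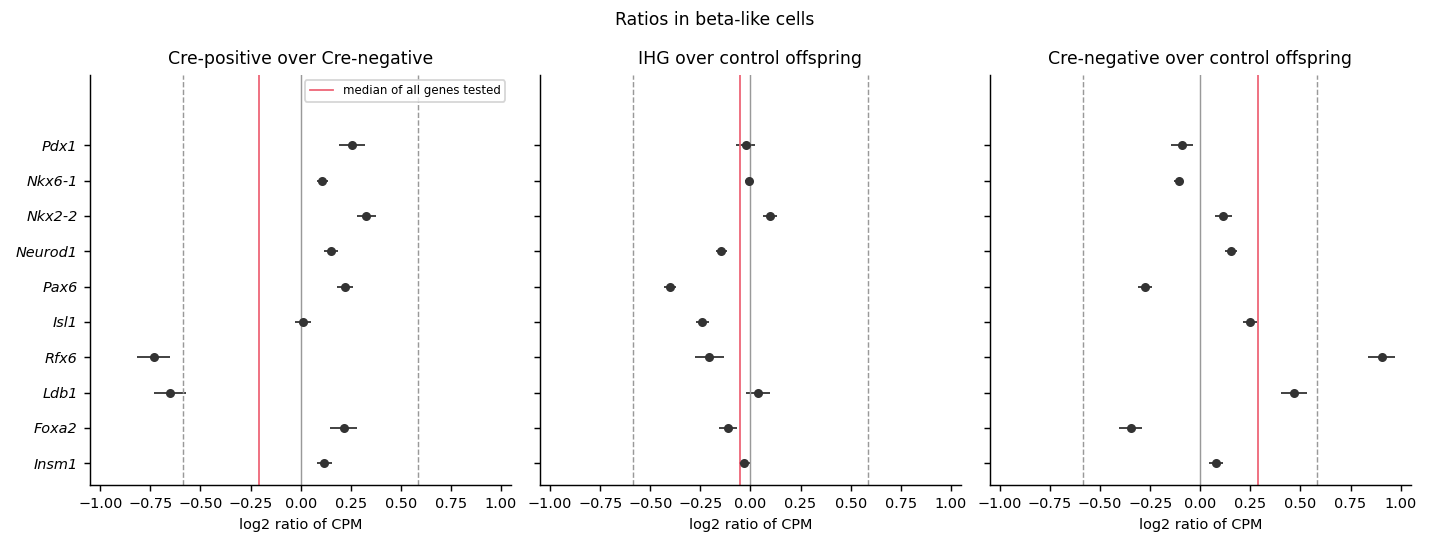
Log2 ratios of CPM in beta-like cells (horizontal axes) for the 10 genes, in 3 comparisons of libraries, with exact 95% intervals of counting error. Dashed lines mark 1.5-fold and the coloured line the median of all genes tested. Rfx6 and Ldb1 lie to the left in the Cre comparison and to the right in the comparison of Cre-negative with control offspring.

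Within the Cre-negative library the 2 genes varied by cluster. In cluster 3, with 2781 cells, Rfx6 was at 100.3 CPM (96.8 to 104) and Ldb1 at 96.8 CPM, and in cluster 0, with 181 cells and similar depth (9849 against 9660 median UMIs), at 61.3 CPM (50.9 to 73.4) and 70.0 CPM. Cre-positive cells in cluster 0 were at 50.7 and 49.8 CPM. In cells of cluster 0 alone Rfx6 was 1.21-fold lower (0.96 to 1.52) and Ldb1 1.41-fold lower (1.13 to 1.76) in the Cre-positive library. Without clusters 3 and 20, an alternative chosen after seeing the data that leaves 453 Cre-negative cells, Rfx6 was 1.17-fold and Ldb1 1.22-fold lower. Control offspring and IHG cells in cluster 3 were at 67.1 and 56.8 CPM of Rfx6 and at 102.6 and 85.6 CPM of Ldb1. Cluster 3 was led by Dlk1, Slc2a2, Car15 and G6pc2.

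**Figure D3:**
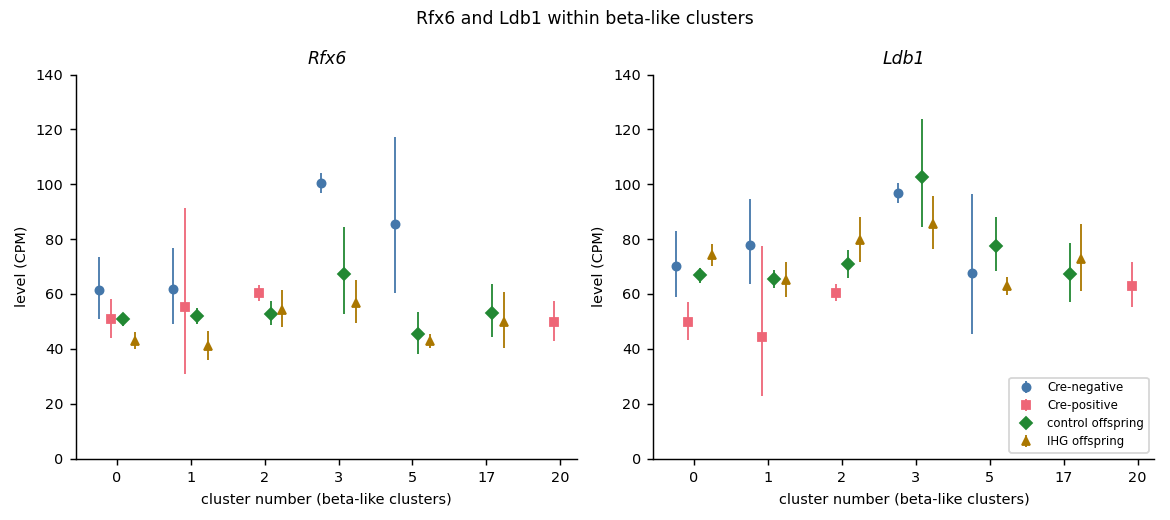
Level of Rfx6 and Ldb1 in CPM (vertical axes, from 0) in each beta-like cluster with at least 50 cells of a library (horizontal axes, cluster numbers), with exact 95% Poisson intervals. The Cre-negative value of Rfx6 is 100.3 CPM in cluster 3 and 61.3 CPM in cluster 0.

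The other 8 members were within 1.26-fold between the Cre libraries in beta-like cells. Nkx2-2 was furthest, 1.25-fold higher in the Cre-positive library (1.21 to 1.30), followed by Pdx1 at 1.20-fold (1.14 to 1.25). Pax6 was 1.17-fold (1.13 to 1.20), Foxa2 1.16-fold, Neurod1 1.11-fold, Insm1 1.08-fold and Nkx6-1 1.08-fold higher. In cluster 0 alone the direction turned for Insm1, 1.24-fold lower with Cre (1.12 to 1.37), and Nkx6-1, 1.09-fold lower (1.02 to 1.17), and Neurod1 had a ratio of 0.95 (0.87 to 1.04). Isl1 had a ratio of 1.01 (0.98 to 1.04). Pdx1 in the Cre-positive library was the highest of the 4 libraries, and its transcripts cannot be separated here from any that a transgene carrying Pdx1 sequence might give.

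In alpha-like cells 2 of 10 members were 1.5-fold lower with Cre, Isl1 and Foxa2, and 1 was higher, Pdx1. Of 6757 genes with 20 CPM in either library 43.6% passed 1.5-fold, 38.9% lower and 4.62% higher. A total of 9 members met that filter, and Pdx1 did not. The median log2 ratio was -0.41 over the members and -0.47 over all genes. Isl1 was 1.91-fold lower (1.82 to 2.01) and stayed past 1.5-fold in each setting tried except median-of-ratios scaling, where its log2 ratio was -0.51. Under that scaling the members counted were instead all higher with Cre: Pdx1 (3.81-fold), Insm1 (1.86-fold), Nkx6-1 (1.52-fold) and, at the threshold, Nkx2-2. With the top doublets removed everywhere Insm1 (1.62-fold) and Nkx6-1 (1.65-fold) were counted as higher too, beside Pdx1. Isl1 was counted as lower there (1.88-fold). Nkx6-1 had a ratio below 1 in cells with at most 1% insulin UMIs (0.97, 0.86 to 1.09) and without cells rich in other hormones (0.86, 0.71 to 1.06). Foxa2 was 1.54-fold lower (1.39 to 1.70), a log2 ratio of -0.62. It fell short of 1.5-fold under median-of-ratios scaling (-0.19), with each library clustered alone (-0.22), without hormone and mitochondrial genes (-0.28), in the shared cluster (-0.28, with 51 Cre-negative cells), with classes set by hormones (-0.40) and with the top doublets removed everywhere (-0.58). Glucagon took 11.2% of UMIs in Cre-negative alpha-like cells and 28.2% to 35.0% in the other 3 libraries. Beyond the setting without hormone genes, its part in these ratios was not tested. Pdx1 was 2.83-fold higher (1.71 to 4.91) from 19 and 91 UMIs, below 20 CPM in both libraries and at the endothelial level. Isl1 (1.68-fold) and Ldb1 (1.56-fold) were also higher in Cre-negative than in control offspring alpha-like cells, and Nkx6-1 (1.59-fold), Insm1 (1.54-fold) and Pdx1 (3.87-fold) lower, where 40.8% of 6763 genes passed 1.5-fold, 36.4% higher and 4.44% lower. Pdx1, under 20 CPM there too, was not among those 6763 genes. With classes set by hormones Ldb1 (1.49-fold), Nkx6-1 (1.45-fold) and Insm1 (1.46-fold) no longer passed 1.5-fold, and Pdx1 was 16.8-fold lower (2.70 to 694) on 1 UMI in the Cre-negative library.

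In delta-like cells Nkx6-1 and Nkx2-2 were 1.5-fold higher with Cre and 0 of 10 members were lower, where 24.7% of 6919 genes passed 1.5-fold, 8.85% higher and 15.9% lower. Nkx2-2 was 2.34-fold higher (2.07 to 2.66). Its log2 ratio was 1.23, and it ranged from 1.00 to 1.38 over the settings tried, including 1.19 in cells with at most 1% insulin UMIs. The Cre-negative value of 97.5 CPM was the lowest of the 4 libraries, and Nkx2-2 was 1.80-fold lower (1.58 to 2.04) there than in control offspring, or 1.22-fold lower (0.85 to 1.71) with classes set by hormones. Nkx6-1 was 5.10-fold lower in that comparison, where 24.7% of 6833 genes passed 1.5-fold, 17.6% higher and 7.05% lower. With classes set by hormones Nkx6-1 was 1.28-fold higher (0.79 to 2.17) in the Cre-negative library. In the Cre comparison Nkx6-1 was 3.13-fold higher (2.72 to 3.62) with Cre, and this value did not hold once insulin-containing cells were set aside.

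Insulin UMIs moved with Nkx6-1 in delta-like cells. Insulin took 0.931%, 6.18%, 12.9% and 3.22% of UMIs of the class (Cre-negative, Cre-positive, control, IHG), the same order of libraries as Nkx6-1. Summed beta markers in delta-like cells came to 17950, 82630, 160342 and 48373 CPM, with 7 to 9 of 11 markers at 20 CPM or more. In delta-like cells with at most 1% insulin UMIs, Nkx6-1 was at 51.6 CPM (43.6 to 60.5), 28.4 (22.7 to 34.9), 58.5 (47.1 to 72.0) and 37.6 (33.0 to 42.6). In those with over 10% insulin UMIs it was at 502 CPM (Cre-positive), 493 (control offspring) and 463 (IHG), between the low-insulin value and the beta-like one. The Cre ratio thus turned from 3.13-fold higher to 1.82-fold lower in the cells with little insulin, an alternative chosen after seeing the data. With classes set by hormone UMIs alone it was 5.16-fold lower, from 117 and 7 UMIs.

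Pdx1 did not follow insulin in delta-like cells to the same extent. With at most 1% insulin UMIs it was at 65.4, 86.0, 79.4 and 67.0 CPM, and with over 10% at 89.8 (Cre-positive), 101.1 (control offspring) and 93.1 (IHG). In alpha-like cells with at most 1% insulin UMIs Pdx1 was at 1.71, 4.93, 7.74 and 3.47 CPM, and in those with 1 to 10% at 45.6, 40.9 and 22.6 CPM in the Cre-negative, Cre-positive and control offspring libraries. Delta-like cells with little insulin thus held Pdx1 at 65.4 CPM or more, and alpha-like cells with little insulin at 7.74 CPM or less.

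**Figure D4:**
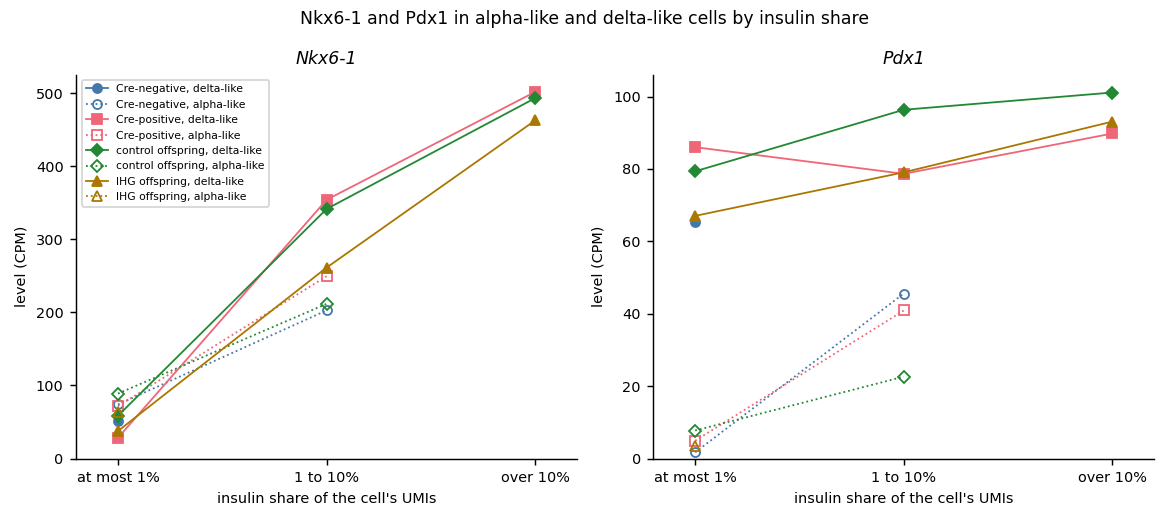
Level of Nkx6-1 and Pdx1 in CPM (vertical axes, from 0) in delta-like cells (filled, solid) and alpha-like cells (open, dotted) grouped by the share of insulin UMIs in each cell (horizontal axes), for groups of at least 50 cells. In delta-like cells Nkx6-1 is 28.4 to 58.5 CPM at low insulin and 463 to 502 CPM at high insulin, while Pdx1 is 65.4 to 86.0 CPM already at low insulin.

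The second contrast asked how islet cells of offspring differed after intrauterine hyperglycemia. In beta-like cells 0 of 10 members were 1.5-fold apart between IHG and control offspring, where 1.29% of 5525 genes were, 0.597% higher and 0.688% lower. The median log2 ratio was -0.07 over the members and -0.05 over all genes. Pax6 was the furthest, 1.32-fold lower in IHG offspring (1.29 to 1.35), at 247 against 326 CPM. The log2 ratio of Pax6 was -0.40 and ranged from -0.42 to -0.32 over the settings tried. Between libraries labelled with neither Cre nor hyperglycemia, Pax6 was 1.21-fold lower (1.18 to 1.24) in Cre-negative than in control offspring beta-like cells. There Isl1 was 1.19-fold higher (1.16 to 1.22) in the Cre-negative library. That comparison shares the control offspring library with this one. Below, ratios are again of IHG to control offspring. Isl1 was 1.18-fold (1.16 to 1.21), Rfx6 1.15-fold, Neurod1 1.11-fold (1.09 to 1.13) and Foxa2 1.08-fold lower. Nkx6-1 (1.00, 0.98 to 1.01), Pdx1 (0.98, 0.95 to 1.02), Insm1 (0.98, 0.96 to 1.00) and Ldb1 (1.03, 0.98 to 1.07) had ratios near 1, and Nkx2-2 was 1.07-fold higher. In cells of cluster 0 alone the log2 ratio of Isl1 was -0.03, so that its difference was not seen there, and Pdx1 (1.25-fold, 1.19 to 1.32) and Nkx6-1 (1.18-fold, 1.16 to 1.21) were higher in IHG offspring.

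For Nkx6-1 and Pdx1, beta-like clusters 5 and 0 of the IHG library differed more from each other than the IHG and control libraries did as a whole. In cluster 5, which held 2380 IHG beta-like cells, Nkx6-1 was at 553 CPM, Pdx1 at 83.9 and Isl1 at 179. In cluster 0, with 1914 cells and a median depth of 8972 UMIs against 9330 in cluster 5, they were at 814, 138 and 251 CPM. In control offspring cluster 5 and cluster 0 were at 630 and 689 CPM of Nkx6-1 and at 105 and 110 CPM of Pdx1. These are a description, since the clusters were formed from genes of the same cells.

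In IHG alpha-like cells Nkx6-1 was 1.92-fold lower (1.72 to 2.13) and Pdx1 3.43-fold lower (2.28 to 5.19) than in control offspring, where 8.6% of 5811 genes passed 1.5-fold, 1.29% higher and 7.31% lower. Pdx1 was under 20 CPM in both and so was not among those 5811 genes. Insulin took 1.82% of UMIs in control offspring alpha-like cells and 0.274% in IHG ones. Without cells rich in other hormones the log2 ratios were -0.37 for Nkx6-1 and -0.12 for Pdx1, and 0 of 10 members were 1.5-fold apart. In delta-like cells Nkx6-1 was 3.51-fold lower (3.24 to 3.80) in IHG offspring, where 9.68% of 6344 genes passed 1.5-fold, 4% higher and 5.67% lower. The log2 ratio of Nkx6-1 was -1.81, and -0.64 in cells with at most 1% insulin UMIs. Neurod1 was 1.49-fold lower (1.40 to 1.59) in the same cells and Pdx1 1.34-fold lower. All 10 members had a ratio below 1 in delta-like cells, with a median log2 ratio of -0.21 against -0.01 over all genes, alongside the lower insulin share in the IHG library. Somatostatin took 23.7% of UMIs in IHG delta-like cells and 10.0% in control offspring ones. Without hormone and mitochondrial genes 7 of 10 members kept this direction, with a median log2 ratio of -0.12. Insm1 (1.03), Ldb1 (1.02) and Isl1 (1.00) did not, with intervals that held 1. The direction also did not hold within the delta-like cluster that both libraries filled (504 IHG and 1054 control offspring cells). There Foxa2 (1.17-fold), Isl1 (1.13-fold) and Insm1 (1.09-fold) were higher in IHG offspring, with intervals above 1, and Pdx1 (1.02), Rfx6 (1.10) and Ldb1 (1.08) had ratios above 1 with intervals that held 1. Pdx1 also turned with classes set by hormones, to a ratio of 1.42 (0.91 to 2.33).

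Other genes of the pathway were taken from 4 lists chosen with earlier results of these data known. Among 44 other islet transcription factors, 18 reached 20 CPM in beta-like cells of the Cre libraries, where 6.95% of all 6459 genes were higher and 18.9% lower, and 0 were higher and 4 lower in the Cre-positive library, among them Tcf7l2 (2.48-fold, 16.1 against 39.9 CPM), Etv1 (1.79-fold) and Zbtb20 (1.60-fold). Of 29 LIM complex and homeodomain partners, 18 reached that level, 3 were higher with Cre and 4 lower. Tle5 (2.38-fold), Tle3 (1.88-fold) and Tcf4 (1.54-fold) were higher, with Tle3 being a Groucho corepressor of homeodomain factors, and Meis3 (1.73-fold) and Tle1 (1.58-fold) were among those lower. Of 18 chromatin partners, 16 reached it, 1 was higher (Men1, 1.83-fold) and 6 were lower, among them Smarca2 (1.67-fold), an ATPase of the SWI/SNF complex, Setd7 (1.67-fold) and Kat2b (1.59-fold), with Hdac3 (1.58-fold) and Ep300 (1.53-fold). With 16 to 18 genes a list, nothing is read from the distance of these counts to the shares over all genes. The median log2 ratio of the chromatin partners was -0.49, and those of the first 2 lists were -0.14 and -0.22, against -0.21 over all genes.

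Of 41 target genes in beta cells, 37 reached 20 CPM, 3 were higher and 6 lower in Cre-positive beta-like cells, close to the 6.95% and 18.9% over all genes, with a median log2 ratio of -0.15. Ucn3, which encodes a peptide of mature beta cells, was at 522 against 160 CPM, and Slc2a2, the glucose transporter gene, at 265 against 620 CPM. Ffar1, a fatty acid receptor, was 1.92-fold higher at 160 against 83.1 CPM. Pcx (2.13-fold), the pyruvate carboxylase gene, Glp1r (2.04-fold), the incretin receptor gene, and Pcsk1 (1.81-fold), a prohormone convertase gene, were lower. Like Rfx6, several of these stood apart in the Cre-negative library. Tcf7l2 was 2.26-fold, Smarca2 1.88-fold and Pcx 1.63-fold higher in Cre-negative than in control offspring beta-like cells. These comparisons share the Cre-negative library with the Cre contrast.

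In IHG beta-like cells 1 of 14 other islet transcription factors at 20 CPM was past 1.5-fold, against 1.29% of all 5525 genes, Mafa, a basic leucine zipper activator of the insulin genes, at 808 CPM against 1275 in control offspring (1.58-fold lower, 1.56 to 1.59). Mafa was at 404 CPM in Cre-negative beta-like cells, 3.16-fold lower than in control offspring. None of 17 LIM complex and homeodomain partners and none of 16 chromatin partners passed 1.5-fold, and 1 of 36 target genes did, Nnat (2.73-fold higher), an imprinted gene of the secretory pathway.

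Members detected per cell were counted after thinning. Their mean adds up the separate detection shares of the genes, so it does not show whether genes occur together in a cell. At 2000 UMIs per cell a beta-like cell had UMIs of 3.46 of the 10 genes on average without Cre and 3.63 with Cre, and of 3.48 in control and 3.22 in IHG offspring, and 0.831% to 2.09% of beta-like cells had none. Alpha-like cells had 2.63, 2.09, 2.26 and 2.02 and delta-like cells 2.62, 2.99, 3.37 and 2.71, in the same order of libraries. Endothelial-like cells had 0.27 to 0.47, of which Ldb1 was found in 15.8% to 19.2% of cells. Without thinning, beta-like cells had 7.45, 7.55, 6.48 and 7.04 at median depths of 9536, 10070, 5832 and 8846 UMIs. Thinning left out 64 to 266 beta-like and 96 to 804 endothelial-like cells per library.

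**Figure D5:**
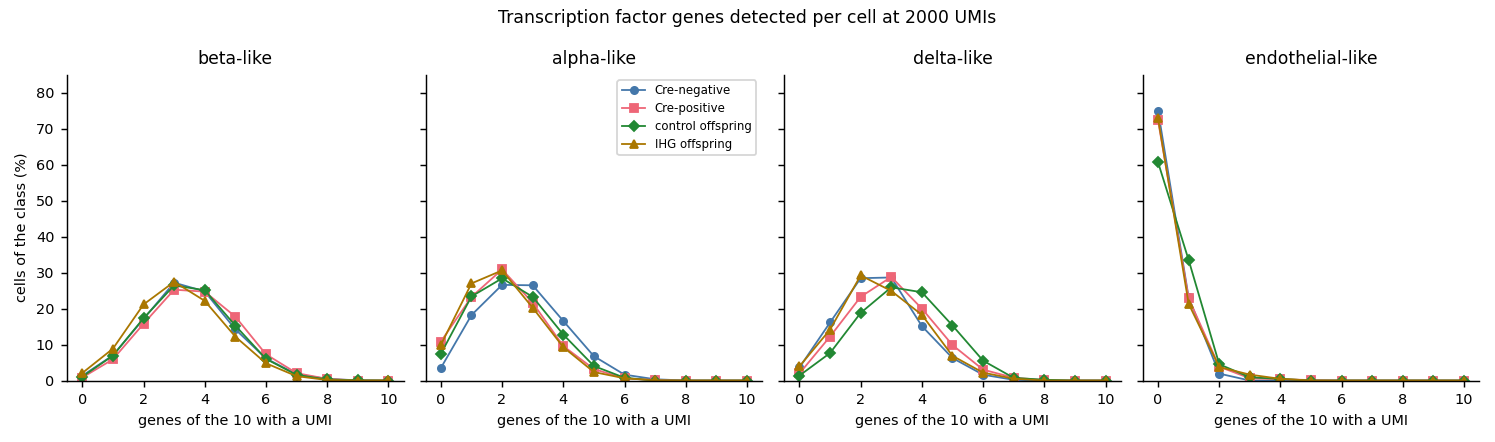
Share of cells (vertical axes, percent) with UMIs of 0 to 10 of the genes (horizontal axes) after thinning each cell to 2000 UMIs, by class and library. Beta-like cells of all 4 libraries peak at 3 or 4 genes, and 60.6% to 75.0% of endothelial-like cells have none.

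Across the 16 sums of 4 classes (beta-like, alpha-like, delta-like and endothelial-like) by 4 libraries, the genes most like each member were found by the Pearson correlation of log2(CPM + 5), as a description in which points share libraries. Most members first separate endocrine from endothelial-like sums there, so the 12 endocrine sums are more telling. Over these, Pdx1 was nearest to Rasgrf1 (r = 0.99), Mlxipl (0.99) and Klf5 (0.99), and Nkx6-1 to Hapln4 (0.99), Sytl4 (0.99) and G6pc2 (0.99). Insm1 had another member, Pdx1, among its nearest 3 of 9358 genes (r = 0.98), with Cabp7 and Chmp4c. Rfx6 was nearest to Rlim, Tjp1 and Foxj2 (0.97 each), Ldb1 to 2610507B11Rik (0.97), Ogdh (0.95) and Tspan3 (0.95), and Isl1 to Stoml1, Gtdc1 and Mast4 (0.96 each). Pax6 was nearest to Cyb5a (0.95), Neurod1 to Mrps23 (0.95), Nkx2-2 to Gramd1a (0.95) and Foxa2 to Serhl (0.91).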

How the data were processed

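Single-cell 3' libraries were made on the SeekOne MM platform from hand-picked, cultured and trypsin-dissociated islets, per the labels' protocols. The authors deposited counts, as whole UMIs per gene and barcode. The submitters' processing notes name Cell Ranger, Seurat and mm10 without versions or roles. The aligner, the annotation and any barcode filter were not given in the sources used here. Every matrix had 500 UMIs in its lowest barcode.

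Barcodes were kept from 500 genes upward if mitochondrial UMIs made up at most 20%. Scrublet (scanpy 1.11.5, expected rate 0.06) removed 1.71% of Cre-positive and 4.54% of IHG cells by its automatic threshold. That threshold marked under 0.5% in the Cre-negative and control offspring libraries, where the top 6% of scores (6.26% and 6.53% of cells with ties) were removed instead. From 2000 variable genes without the members, 30 components, 15 neighbours and Leiden clustering at resolution 1 (igraph 0.11.9, leidenalg 0.10.2) gave clusters named from marker lists. UMIs were summed per class and library, and a level is CPM. For ratios, 3 UMIs stood in for a count of 0. The fold rule was tried on simulated counts with counting error alone, which cannot show how it fares with variation between libraries. Intervals used scipy 1.17.1. Genes named are the 10 members, up to 6 genes per pathway list past 1.5-fold in beta-like cells with 20 CPM in either library, and the nearest genes by correlation. Some genes that this rule names are not reported here. The members and lists were chosen with earlier results of these data known. Alternatives changed the scaling, filters, doublet removal, clustering, class rule, thinning and averaging.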

Additional observations from a re-analysis of the deposited data

Results flagged for a closer look

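In the main setting of the Cre comparison, Isl1 and Foxa2 pointed in opposite directions in different endocrine classes. Each ratio had a counting interval that excluded 1, and at least 1 class was past 1.5-fold. With 1 library per group the difference between classes was not tested. Isl1 had a log2 ratio of -0.93 in alpha-like and 0.21 in delta-like cells, a difference of -1.14. Foxa2 had -0.62 in alpha-like cells against 0.22 in beta-like and 0.20 in delta-like cells, differences of 0.84 and -0.82. Glucagon took 11.2% of UMIs in Cre-negative and 29.3% in Cre-positive alpha-like cells, and without hormone and mitochondrial genes the alpha-like log2 ratios were -0.60 for Isl1 and -0.28 for Foxa2. The delta-like interval of the Foxa2 ratio barely excluded 1 in the main setting (1.01 to 1.31). It held 1 without hormone and mitochondrial genes (0.96 to 1.25) and with each library alone (0.92 to 1.20). The same was true with hormone-only classes (0.89 to 1.55) and after thinning (0.91 to 1.51). The alpha-like Foxa2 interval held 1 with each library alone (0.73 to 1.01) and in the shared cluster (0.53 to 1.36). Under median-of-ratios scaling the alpha-like log2 ratios were -0.51 for Isl1 and -0.19 for Foxa2. Median log2 ratios over all genes were -0.47 in alpha-like, -0.21 in beta-like and -0.18 in delta-like cells.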

How the results depend on the processing

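No paired analysis was possible because each group had 1 library and the labels give no replicate numbers that pair libraries. No replicate could be left out for the same reason. In Cre beta-like cells the count of members 1.5-fold apart was 2, and it was 0 with median-of-ratios scaling, with each library clustered alone, in cluster 0 alone and without clusters 3 and 20. Fewer cells enter the last 3 of these (2106, 181 and 453 Cre-negative). In Cre alpha-like cells it was 3, and 5 after thinning to 2000 UMIs. It was 4 with median-of-ratios scaling, where Isl1 and Foxa2 gave way to Insm1, Nkx6-1 and Nkx2-2, and 4 with the top doublets removed everywhere, in the shared cluster and with a mean over cells. In Cre delta-like cells it was 2, against 1 with each library alone and 3 after thinning, which added Pdx1. In IHG alpha-like cells it was 2, against 0 without cells rich in other hormones and 1 in the shared cluster, and 3 in each of 4 settings: Insm1 was added with each library alone, with the top doublets removed everywhere and with a mean over cells, and Rfx6 with no doublets removed. In IHG delta-like cells it was 1, against 4 with each library alone and 2 each with the top doublets removed everywhere, with hormone-only classes, after thinning, with a mean over cells and with insulin at most 1%. In IHG beta-like cells it was 0 in all settings. The log2 ratio of Nkx6-1 in Cre delta-like cells, 1.65, reversed to -2.37 with hormone-only classes and to -0.86 with insulin at most 1%. Allowing members among the clustering genes changed no class, since none was among the 2000 variable genes. All genes past 1.5-fold in beta-like cells numbered 1670 (Cre) and 71 (IHG), against 6974 and 3135 with no filter beyond 3 UMIs, 536 and 10 at 2-fold, and 128 for IHG at 10 CPM. Median-of-ratios scaling moved the share of higher genes among those counted from 10.6% to 55.6% (Cre alpha-like), from 35.8% to 57.9% (Cre delta-like), from 46.5% to 63.5% (IHG beta-like) and from 15% to 29.6% (IHG alpha-like). Of 690 log2 ratios of members under an alternative, 480 stayed within the counting interval of the main value. Both counts include the setting with members allowed, which changed no class and so could only repeat the main values. The direction turned in 39 of the 690, and in 7 of these both intervals excluded a ratio of 1. Delta-like cells without other hormones, and the shared delta-like cluster of the Cre libraries, had under 50 cells in a library and gave no value. The cause of each change was not tested. The number of UMIs limits Pdx1 in alpha-like and non-endocrine cells, with 19 to 91 UMIs per library in the former.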
